A study of Mus musculus with 12 samples.

Results

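The ErbB family was described at the RNA level in hippocampal cultures after knockdown of the lncRNA *Neuid*. The set held the receptors *Egfr*, *Erbb2*, *Erbb3* and *Erbb4*, the ligands *Nrg1*, *Nrg2*, *Nrg3*, *Hbegf* and *Btc*, and the receptor inhibitor *Lrig1*. These 10 genes were found by mouse gene symbol among the 55471 genes of the count table. They were chosen by gene family, with the measured fold changes between the Neuid KD and control libraries already known, so their fold changes, adjusted p-values and calls are given as a description of the data and not as a test of the family.

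*Neuid* (Gm10419) is a neuronal lncRNA, and the experiment asked which transcripts change when it is depleted. Primary hippocampal cells of wild-type CD1 mouse embryos received, at day in vitro 7, lipid nanoparticles carrying either a control gapmer or a gapmer against *Neuid*, and RNA was collected at day in vitro 10. Gapmers are short antisense oligonucleotides that recruit RNase H to the RNA they pair with. There were 6 libraries treated with control gapmers (control) and 6 libraries treated with *Neuid* gapmers (Neuid KD), all of total RNA. One gapmer sequence was used per group. Nothing in the labels states that the 6 libraries of a group came from separate cultures, so the p-values measure the spread between these libraries, which may be technical.

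The libraries held between 11152556 reads (Neuid KD 1) and 30914714 reads (control 3) on genes. *Neuid* was at 28.4 ± 2.03 CPM (reads scaled to library size with TMM factors; mean ± SD, n = 6) with the control gapmer and at 8.05 ± 1.13 CPM with the *Neuid* gapmer, with no overlap between groups (exact two-sided permutation test, p = 0.002165, the smallest the 924 arrangements allow). Libraries differed in the share of reads on chemosensory receptor genes, which was taken here as a measure of background. Where these reads came from was not tested. Their sum reached 100 CPM or more in control 1, 2, 4 and 6 and in Neuid KD 1, 5 and 6, called the 7 high-background libraries here, and stayed lower in control 3 and 5 and in Neuid KD 2, 3 and 4, called the 5 low-background libraries. Because both classes held both groups, each value below is also given within each class where that changed a call. The labels call the cells neurons. The neuronal marker *Map2* had a control mean of 2625 CPM, and the astrocyte marker *Slc1a2* had one of 1185 CPM, and no values here separate the cells these transcripts came from. In such bulk RNA, more cells of one type and more RNA per cell cannot be told apart.

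ErbB receptors are tyrosine kinases of the cell surface that pair up when ligands of the EGF and neuregulin families bind, and then signal through the Ras-ERK and PI3K-AKT pathways. *Erbb2* has no known ligand of its own and *Erbb3* has a weak kinase, so both work mainly in pairs with other receptors. In the brain, *Egfr* is known from neural progenitors and astrocytes, *Erbb4* is best known from inhibitory neurons and also serves as the receptor of the neuregulins, and *Lrig1* is a membrane protein that lowers the amount of ErbB receptors.

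The sequences upstream of *Egfr*, *Erbb4* and *Lrig1* are shown because these 3 genes had the largest increases in the set. Each run is the 250 bases before the gene's start in RefSeq on GRCm38.p6, 5′ to 3′ on the gene's strand. The GENCODE start of *Lrig1* given below lies further upstream than its RefSeq start, so the first bases of that gene as GENCODE places it fall inside the window. The windows are chr11:16751953-16752202 on the plus strand for *Egfr*, chr1:69108060-69108309 on the minus strand for *Erbb4* and chr6:94700146-94700395 on the minus strand for *Lrig1*. Capitals mark matches, on either strand, to the E-box CANNTG, the N-box CACNAG, the ETS core CCGGAA or the TCF core CTTTGA.
Egfr: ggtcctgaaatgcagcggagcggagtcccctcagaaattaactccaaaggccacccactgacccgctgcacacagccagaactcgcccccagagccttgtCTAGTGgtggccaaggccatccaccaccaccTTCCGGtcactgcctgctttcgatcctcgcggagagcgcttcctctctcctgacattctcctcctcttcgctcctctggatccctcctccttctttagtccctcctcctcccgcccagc
Erbb4: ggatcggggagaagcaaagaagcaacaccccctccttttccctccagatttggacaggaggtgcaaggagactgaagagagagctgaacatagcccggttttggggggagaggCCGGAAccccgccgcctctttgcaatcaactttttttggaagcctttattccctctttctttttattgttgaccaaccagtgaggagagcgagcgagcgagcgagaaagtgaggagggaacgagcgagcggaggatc
Lrig1: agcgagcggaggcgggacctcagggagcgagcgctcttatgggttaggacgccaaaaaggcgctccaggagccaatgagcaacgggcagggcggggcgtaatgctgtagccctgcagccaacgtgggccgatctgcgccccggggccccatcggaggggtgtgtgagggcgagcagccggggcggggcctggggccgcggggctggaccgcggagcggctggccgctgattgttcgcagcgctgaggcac

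The *Egfr* window held 1 match to the N-box and 1 to the ETS core, the *Erbb4* window held 1 match to the ETS core, and the *Lrig1* window held none of these 4 motifs. Among the 32851 RefSeq promoter windows of this length, 12.0% held the ETS core, 36.7% the N-box, 66.2% the E-box and 13.8% the TCF core. The GC box GGGCGG, which is not marked by capitals, occurred 1 time upstream of *Egfr* and 2 times upstream of *Lrig1*, and in 32.7% of all windows. The GC content was 60.8% for *Egfr*, 54.0% for *Erbb4* and 71.6% for *Lrig1*, beside a median of 52.4% over all windows. A promoter sequence was at hand for 6 of the 10 genes. These matches describe the letters in the windows, and no binding was measured here.

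To set the genes beside each other, levels were expressed per kilobase of exon (RPKM). In controls *Lrig1* was the highest member at 9.25 ± 0.792 RPKM (SD, n = 6), and the ligand *Nrg3*, at 8.503 ± 0.473 RPKM, overlapped with it. *Egfr* followed at 4.71 ± 0.281 RPKM, then *Hbegf* at 3.02 ± 0.254 RPKM and *Nrg1* at 3.01 ± 0.203 RPKM, which overlapped with each other. *Erbb4* was at 2.01 ± 0.194 RPKM. The low end of the order was formed by *Nrg2* (1.10 RPKM) and *Erbb2* (0.898 RPKM), which overlapped, and by *Erbb3* (0.277 RPKM) and *Btc* (0.0967 RPKM), which overlapped as well.

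In Neuid KD the order of the upper members differed. *Lrig1* stood at 14.996 ± 0.620 RPKM and *Egfr*, at 12.7 ± 0.591 RPKM, was now above *Nrg3*, at 9.72 ± 1.13 RPKM, with no overlap between neighbours. *Hbegf* (3.78 RPKM), *Erbb4* (3.50 RPKM) and *Nrg1* (2.92 RPKM) formed a middle group in which neighbours overlapped. *Erbb2* (1.16 RPKM) and *Nrg2* (1.07 RPKM) overlapped again, as did *Erbb3* (0.176 RPKM) and *Btc* (0.0808 RPKM).

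**Figure D1:**
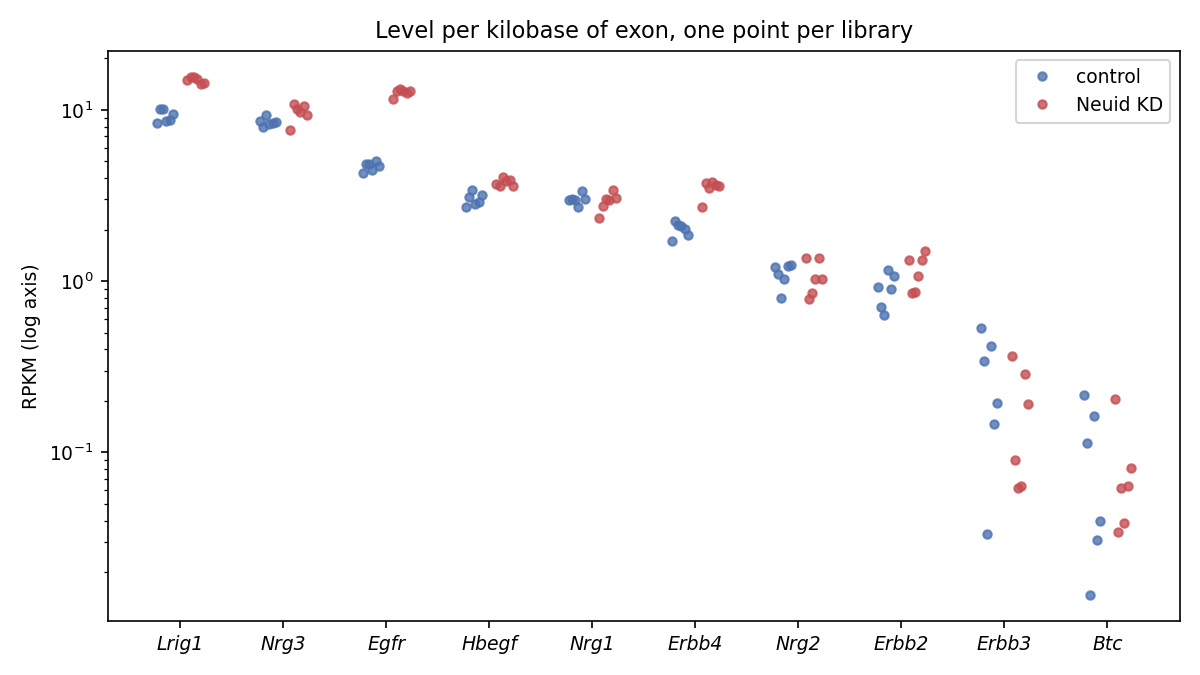
Level of each gene in RPKM on a log axis, 1 point per library, with 6 control libraries in blue and 6 Neuid KD libraries in red; genes are ordered by their control mean. *Egfr* lies below *Nrg3* in controls and above it in Neuid KD, while *Erbb3* and *Btc* scatter widely in both groups.

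Added up, the 4 receptors came to 7.90 ± 0.297 RPKM in controls and 17.5 ± 0.794 RPKM in Neuid KD. The 5 ligands came to 15.7 ± 0.558 RPKM in controls and 17.6 ± 1.33 RPKM in Neuid KD, and these ranges overlapped. The summed RPKM of these 4 receptors was thus 0.503 times that of these 5 ligands in controls and 0.999 times in Neuid KD. Other EGF-family ligands, such as *Tgfa* and *Egf*, are not in this sum. RPKM divides by all annotated exons of a gene, so the ratio is not one of transcript numbers. *Egfr* made up 59.6% ± 3.08 of the receptor sum in controls and 72.4% ± 1.61 in Neuid KD, with lowest and highest shares of 54.98% and 63.4% against 70.4% and 74.9%. The share of *Erbb4* went from 25.5% ± 1.98 to 19.9% ± 1.63, although its own level was higher in Neuid KD.

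Of the 10 genes, 9 had enough reads to be tested, and *Btc* had not. In the fit across all 19578 tested genes (edgeR quasi-likelihood test, Benjamini-Hochberg adjustment), 4 of the 9 were called higher in Neuid KD at an adjusted p under 0.05 and 0 were called lower (0 at an unadjusted p under 0.05 and 0 by DESeq2), where 6.31% of all tested genes were called higher and 2.42% lower. The 4 were *Egfr*, *Erbb4*, *Lrig1* and *Hbegf*. In each of these the libraries of the groups did not overlap, which held for 4.13% of all tested genes in this direction and for 1.57% in the other, where the set had 0. With an added limit of 0.5 on the log2 fold change, 3 of the 9 remained called higher (*Egfr*, *Erbb4* and *Lrig1*), beside 2.44% of all tested genes, and 0 were called lower, beside 0.792%. The median log2 fold change of the 9 genes was 0.32 and that of all tested genes was -0.03. Since the genes were chosen knowing this contrast, nothing is read from these counts.

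**Figure D2:**
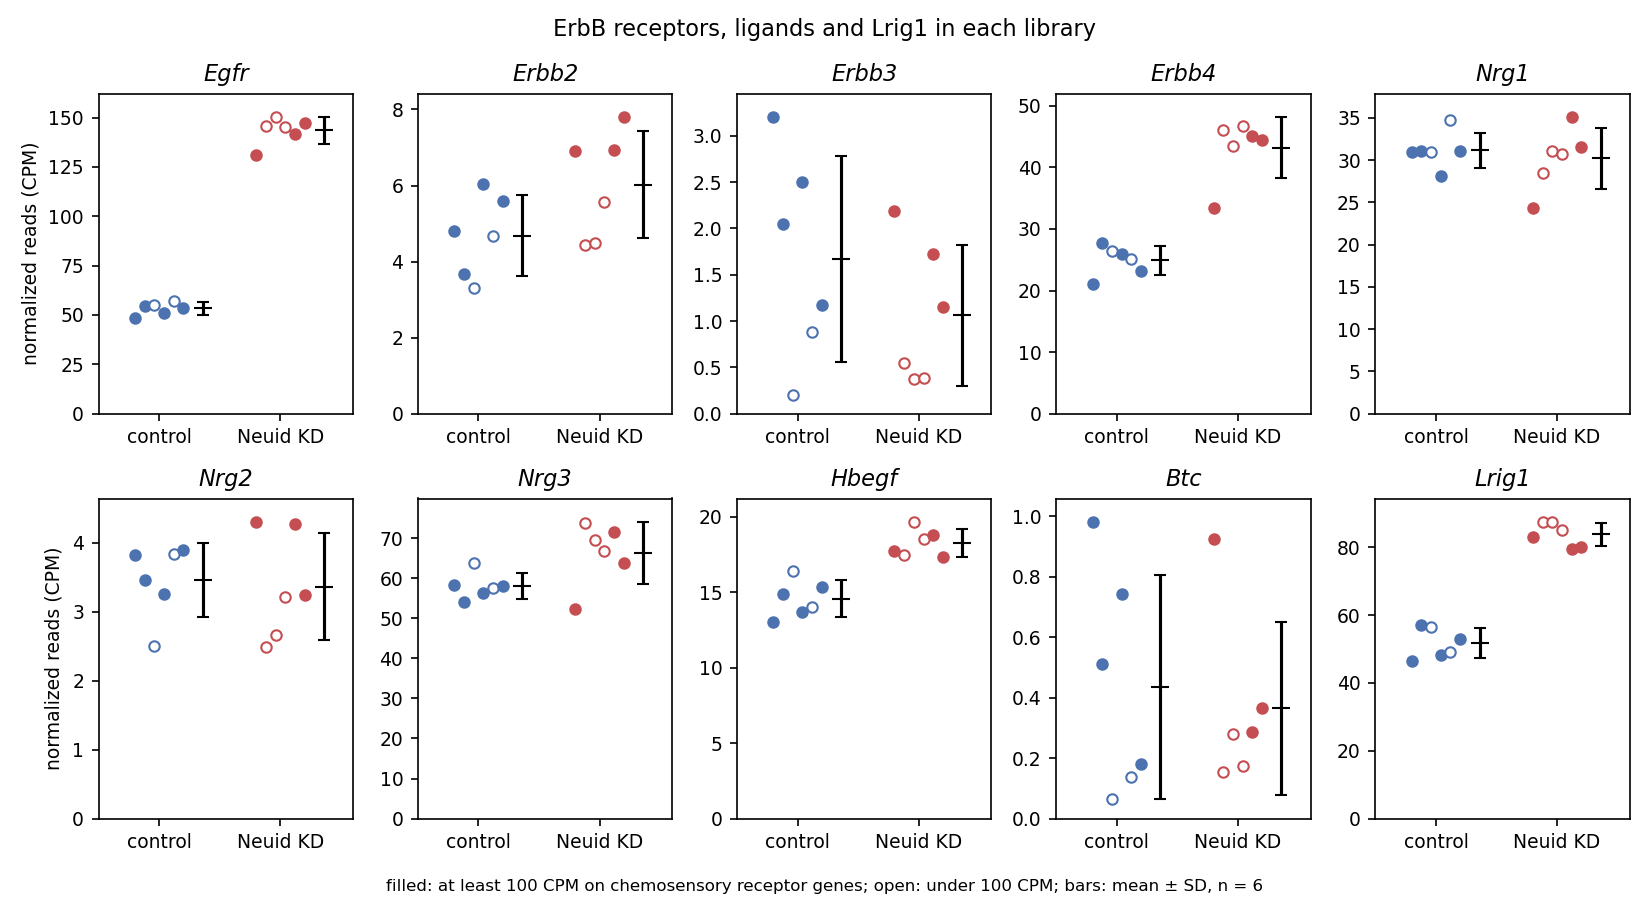
Normalized reads (CPM, linear axes from 0) of each gene in each library, with the mean ± SD (n = 6) beside the points; filled points are high-background libraries and open points are low-background libraries, split at 100 CPM. The groups are apart for *Egfr*, *Erbb4*, *Hbegf* and *Lrig1*, and filled points lie above open ones within each group for *Erbb3* and *Btc*.

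Among the receptors, *Egfr* (ENSMUSG00000020122, chromosome 11, 16752203 to 16918158, plus strand, GRCm38) had the largest increase. Its lowest, median and highest control libraries were at 48.4, 54.2 and 57.2 CPM, and those of Neuid KD were at 131, 146 and 150 CPM. All 6 Neuid KD libraries were thus above every control, and Neuid KD 1, the shallowest library, was the lowest of them. The mean rose from 53.3 ± 3.18 to 144 ± 6.70 CPM (2.69-fold, log2 fold change 1.43 with a standard error of 0.0516, edgeR adjusted p = 4.9e-12). The log2 fold change was 1.44 in the high-background libraries and 1.36 in the low-background libraries. The antisense gene *Egfros*, whose exons do not overlap those of *Egfr*, had 87 reads over all libraries beside 26333 for *Egfr*.

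*Erbb4* (ENSMUSG00000062209, chromosome 1, 68032186 to 69108059, minus strand) encodes the receptor that binds all 3 neuregulins of the set. Controls ranged from 21.1 CPM over a median of 25.5 CPM to 27.7 CPM, and Neuid KD from 33.3 CPM over a median of 44.7 CPM to 46.8 CPM. The groups did not overlap, but Neuid KD 1 stood apart from its group at 33.3 CPM, with the other 5 libraries between 43.5 and 46.8 CPM. The mean went from 24.9 ± 2.40 to 43.2 ± 4.96 CPM (log2 fold change 0.80, standard error 0.0794, edgeR adjusted p = 1.8e-06). Without Neuid KD 1 the log2 fold change was 0.82, and within the background classes it was 0.76 and 0.79. The ratio of *Egfr* to *Erbb4*, per kilobase, was 2.35 ± 0.180 in controls and 3.66 ± 0.339 in Neuid KD, with the lowest Neuid KD ratio (3.39) above the highest control ratio (2.53).

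*Erbb2* (ENSMUSG00000062312, chromosome 11, 98412470 to 98437716, plus strand), the partner receptor without a ligand, was low. It lay between 3.30 and 6.03 CPM in controls (median 4.74 CPM) and between 4.42 and 7.80 CPM in Neuid KD (median 6.23 CPM). The groups overlapped, with 3 of 6 Neuid KD libraries above every control, and these were the 3 high-background libraries of the group. The log2 fold change of 0.36 (standard error 0.174) did not pass (edgeR adjusted p = 0.283). With the background reads as a covariate the adjusted p was 0.0403, with a log2 fold change of 0.39, and with a factor of unwanted variation (RUVs) it was 0.0330. An exon of *Mien1* overlaps *Erbb2* on the opposite strand and *Mien1* had 7878 reads over all libraries beside 1402 for *Erbb2*, and since the strand setting of the counting is not given in the sources used here, the *Erbb2* values are uncertain.

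*Erbb3* (ENSMUSG00000018166, chromosome 10, 128567523 to 128589652, minus strand), which pairs with *Erbb2* as a neuregulin receptor and is typical of oligodendrocyte lineage and Schwann cells, was near the limit of detection. It had 6 to 62 reads per control library and 8 to 42 per Neuid KD library. In CPM it lay between 0.200 and 3.20 in controls (median 1.61) and between 0.374 and 2.19 in Neuid KD (median 0.847). The groups overlapped entirely, and in each group the high-background libraries were the higher ones. The part of these background reads in the *Erbb3* values was not tested. The log2 fold change was -0.67 with a standard error of 0.574 (edgeR adjusted p = 0.654), so no difference was detected with these few reads.

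Among the ligands, *Hbegf* (ENSMUSG00000024486, chromosome 18, 36504927 to 36515805, minus strand), which encodes heparin-binding EGF, a ligand of EGFR and ErbB4, was the only member of the set's ligands called in the fit over all libraries. Its lowest, median and highest libraries were at 13.1, 14.5 and 16.4 CPM in controls and at 17.3, 18.2 and 19.7 CPM in Neuid KD. The groups did not overlap, but they were close, with control 3 less than 1 CPM below the lowest Neuid KD library. The mean went from 14.6 ± 1.23 to 18.3 ± 0.908 CPM (1.25-fold, log2 fold change 0.32, standard error 0.0625, edgeR adjusted p = 0.0023). Within the background classes, which hold fewer libraries, the log2 fold changes were 0.34 (adjusted p = 0.0671) and 0.25 (adjusted p = 0.169), so the call was lost in both.

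*Nrg3* (ENSMUSG00000041014, chromosome 14, 38368952 to 39473088, minus strand), a neuregulin that binds ErbB4, was the most abundant ligand. Controls lay between 53.9 and 63.7 CPM (median 57.7 CPM) and Neuid KD between 52.2 and 73.6 CPM (median 68.1 CPM). In Neuid KD 5 of 6 libraries were above every control, while Neuid KD 1 was below every control. The log2 fold change of 0.20 (standard error 0.0702) did not pass in the fit over all libraries (edgeR adjusted p = 0.106). Without Neuid KD 1 it was 0.21 with an adjusted p of 0.0130, and with the background covariate or the RUVs factor the adjusted p was 0.0131 or 0.0148. Within the background classes it did not pass, at an adjusted p of 0.693 and 0.0626.

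*Nrg1* (ENSMUSG00000062991, chromosome 8, 31814551 to 32884029, minus strand), a ligand of ErbB3 and ErbB4, was at 31.1 ± 2.11 CPM in controls and at 30.2 ± 3.57 CPM in Neuid KD. The control range of 28.1 to 34.7 CPM lay within the Neuid KD range of 24.3 to 35.1 CPM, whose lowest library was again Neuid KD 1. The log2 fold change was -0.04 (standard error 0.0720, edgeR adjusted p = 0.873), and it was 0.03 and -0.15 within the background classes. Of the 18 annotated transcripts of *Nrg1*, 12 are protein-coding, and counts per gene do not separate its isoforms. Its exons also overlap those of *Gm26578* on the opposite strand, a gene not analysed here.

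*Nrg2* (ENSMUSG00000060275, chromosome 18, 36017652 to 36197380, minus strand), another ligand of ErbB3 and ErbB4, was low at 3.46 ± 0.533 CPM in controls and 3.36 ± 0.771 CPM in Neuid KD. The ranges of 2.502 to 3.89 CPM and 2.48 to 4.29 CPM overlapped almost fully. The log2 fold change was -0.05 with a standard error of 0.173 (edgeR adjusted p = 0.933), and its sign differed between the background classes, at 0.13 and -0.19.

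*Btc* (ENSMUSG00000082361, chromosome 5, 91357261 to 91402994, minus strand), which encodes betacellulin, a ligand of EGFR and ErbB4, was barely detected. Control libraries held 2 to 19 reads and Neuid KD libraries 4 to 11 reads. The highest levels, 0.981 CPM for control 1 and 0.926 CPM for Neuid KD 1, were those of the 2 libraries with the most chemosensory background, at 653 and 604 CPM. No level of *Btc* above such background was shown, and the part of the background was not tested.

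*Lrig1* (ENSMUSG00000030029, chromosome 6, 94604529 to 94700158, minus strand), whose protein promotes the breakdown of ErbB receptors, was the third gene of the set with a log2 fold change above 0.5. Its lowest, median and highest libraries were at 46.6, 50.9 and 56.9 CPM in controls and at 79.6, 84.1 and 87.4 CPM in Neuid KD. The groups were well apart, and Neuid KD 1, low for *Erbb4*, was at 83.1 CPM here and inside its group. The mean went from 51.7 ± 4.43 to 83.8 ± 3.46 CPM (1.62-fold, log2 fold change 0.70, standard error 0.0571, edgeR adjusted p = 1.6e-07). Within the background classes the log2 fold change was 0.67 and 0.68. *Slc25a26* overlaps *Lrig1* with exons on the opposite strand but had 1057 reads over all libraries beside 18203 for *Lrig1*. The ratio of *Egfr* to *Lrig1*, per kilobase, was 0.511 ± 0.0366 in controls and 0.846 ± 0.0447 in Neuid KD, so the receptor and its inhibitor did not change in proportion.

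**Figure D3:**
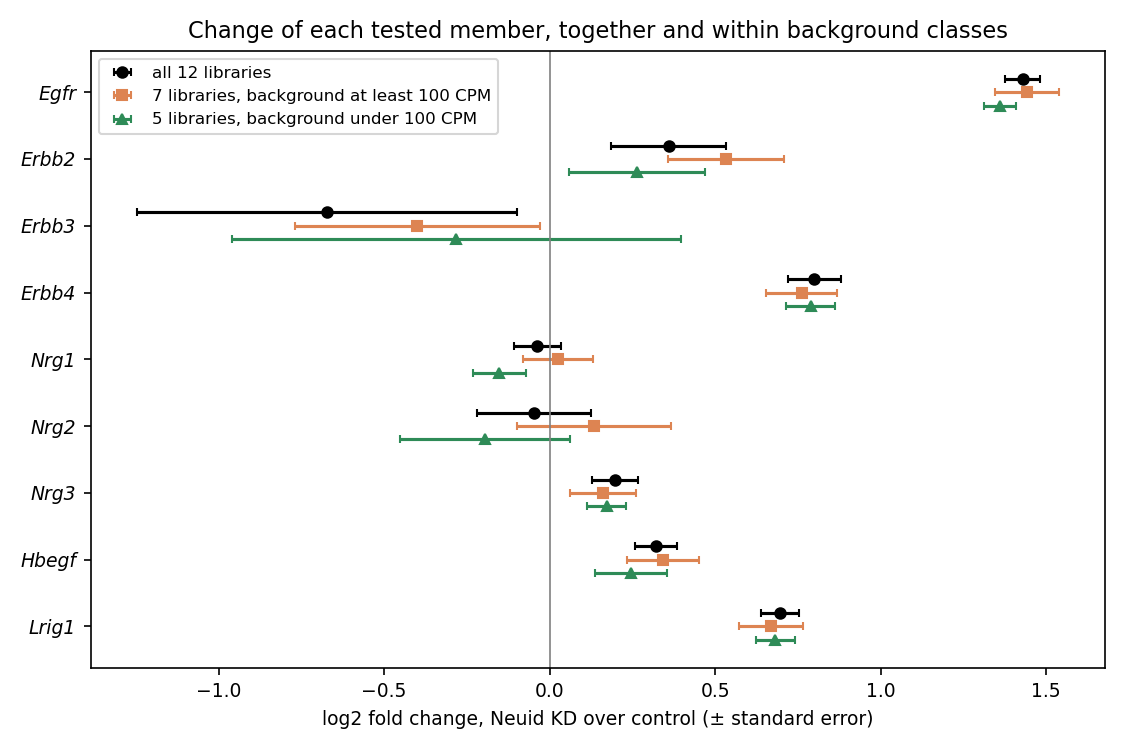
Log2 fold change (Neuid KD over control) with its standard error for the 9 tested genes, in all 12 libraries (black), in the 7 high-background libraries (orange) and in the 5 low-background libraries (green). *Egfr* lies between 1.36 and 1.44, *Erbb4* between 0.76 and 0.80 and *Lrig1* between 0.67 and 0.70 in the 3 sets, while *Nrg1* and *Nrg2* change sign.

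Cell type markers were described beside these genes, and the astrocyte list was the only one in which every marker was called higher. No list was tested as a set. Over all tested genes 6.31% were called higher and 2.42% lower. All 8 astrocyte markers were called higher in Neuid KD, with a median log2 fold change of 0.94 and a range from 0.47 for *Sox9* to 2.27 for *Gja1*, the main astrocyte gap junction gene. Their summed level was 1673 to 2109 CPM in controls and 3021 to 3680 CPM in Neuid KD. Of 6 markers of oligodendrocyte precursors, the transcription factor genes *Olig1* (log2 fold change 1.47) and *Olig2* (1.67) were called higher, and *Pdgfra*, *Cspg4*, *Sox10* and *Gpr17* did not pass. The median log2 fold change of these 6 was 0.30, and 1 of them was below 0, at -0.77. The sum of these 6 was 96.3 to 115 CPM in controls and 247 to 292 CPM in Neuid KD, most of it from *Olig1*. What part a change in the RNA of these or other cell types has in the values of *Egfr*, *Erbb4*, *Lrig1* and *Hbegf* was not tested.

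Of the markers of other cells the culture could hold, few passed, and no marker of any list was without reads in all 12 libraries. Of 9 inhibitory neuron markers, among them *Gad1* and *Gad2*, 0 passed in the edgeR fit (*Slc32a1* higher and *Gad2* lower at an unadjusted p under 0.05, 0 by DESeq2), and their sums overlapped at 191 to 224 CPM in controls and 178 to 208 CPM in Neuid KD. Of 7 excitatory neuron markers *Camk2a* was called higher (log2 fold change 0.38) and *Slc17a6* lower (-0.34), and their summed level was 1602 to 1919 CPM in controls and 1912 to 2126 CPM in Neuid KD, with 5 of 6 Neuid KD libraries above every control. Of the 6 general neuronal markers 0 passed in edgeR or DESeq2 (1, *Rbfox3*, higher at an unadjusted p under 0.05), with sums of 4620 to 5472 CPM in controls and 4483 to 5447 CPM in Neuid KD. The summed level of 5 markers of dividing cells, among them *Mki67*, was 132 to 145 CPM in controls and 123 to 145 CPM in Neuid KD, with 0 called by edgeR (1, *Aurkb*, lower at an unadjusted p under 0.05 and called by DESeq2). Of 4 tested markers of myelinating oligodendrocytes *Mbp* was called lower (-0.66), and the sums over all 6 listed overlapped at 26.3 to 32.8 CPM in controls and 22.7 to 33.2 CPM in Neuid KD. Of 3 tested microglial, 3 tested endothelial and 5 fibroblast or mural markers 0 passed in edgeR or DESeq2, also without adjustment in edgeR, and the sums of these lists were at most 11.1, 12.4 and 48.1 CPM.

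**Figure D4:**
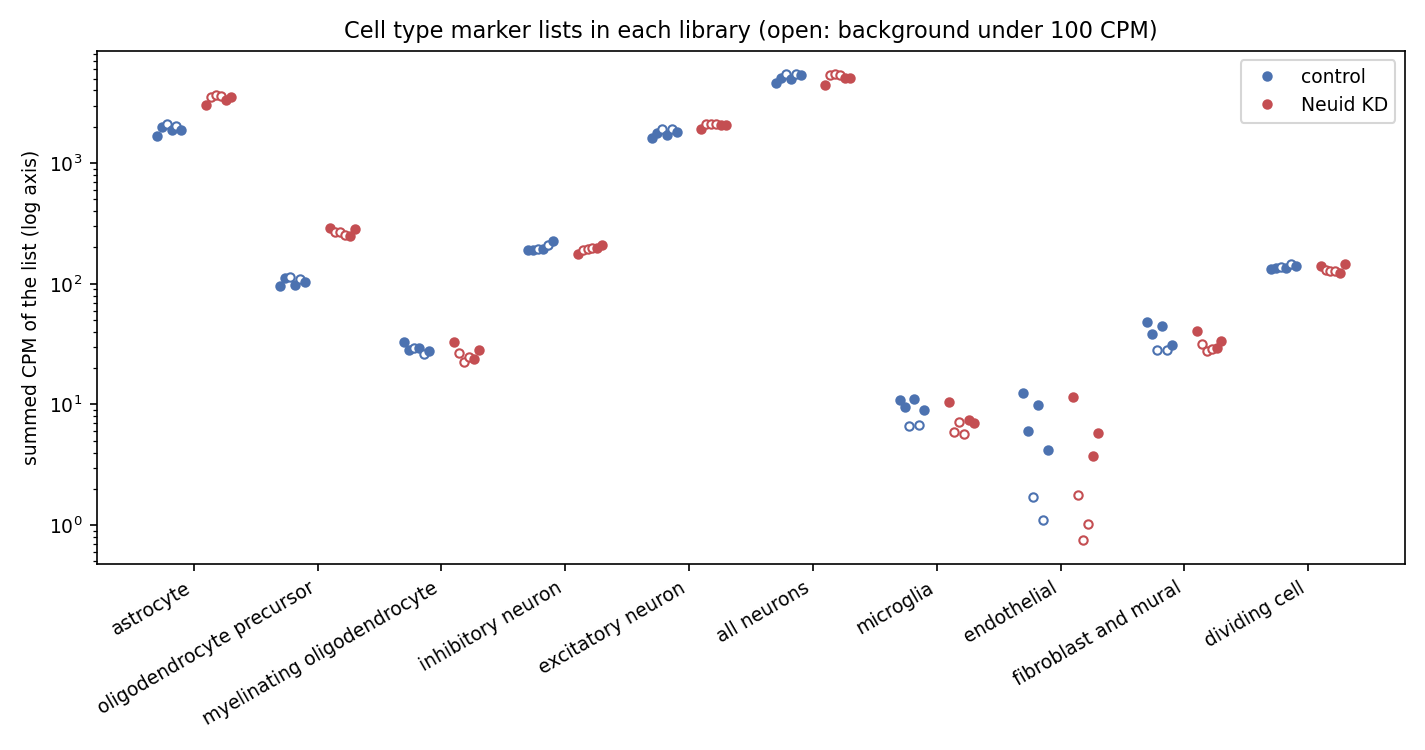
Summed CPM of each marker list on a log axis, 1 point per library, controls in blue and Neuid KD in red, with open points for the low-background libraries. The astrocyte sums (1673 to 2109 CPM in controls, 3021 to 3680 CPM in Neuid KD) and the oligodendrocyte precursor sums (96.3 to 115 CPM, 247 to 292 CPM) do not overlap between groups, while the inhibitory neuron sums do. Of the 6 precursor markers only *Olig1* and *Olig2* were called.

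Among the genes whose pattern over the 12 libraries was most like that of *Egfr* were *Exoc4*, *Gja1*, *Myo6* and *Npas3* (Pearson r of log2 CPM of 0.997 each, among 15204 candidate genes). For *Erbb4* they were *Abca1*, *Wwtr1*, *Igf1r*, *Mpdz* and *Slc1a2* (r from 0.981 to 0.989). This likeness includes the difference between the groups. After each group's mean was subtracted, the nearest to *Egfr* were *Scarb2*, *Arl8b*, *Ralb*, *Frrs1l* and *Vat1* (r from 0.961 to 0.973), none of which was called in the edgeR fit. The nearest to *Erbb4* were then *Abca1*, *Zfp472*, *Grik2*, *Kcnc2* and *Rimklb* (r from 0.941 to 0.963). *Abca1* was thus nearest to *Erbb4* by both measures. Neuid KD 1 stood apart from its group for *Erbb4*, and the part of this single library in these correlations was not tested. The libraries share depth and background reads across genes, and these values are a description.

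The wider ErbB pathway was described with 58 further genes, of which 56 were tested. In Neuid KD 7 were called higher and 1 lower, where 6.31% and 2.42% of all tested genes were, and the median log2 fold change was 0.06. With upper-quartile scaling the counts were 5 higher and 7 lower. These counts moved with single libraries, to 3 higher without control 2 or without Neuid KD 2 and to 4 without Neuid KD 4 or 6, and to 0 lower without control 2, 3, 5 or 6 or without Neuid KD 2, 3 or 4. Of the 8 called genes, *Akt2*, *Gab1* and *Adam17* were called in all 22 alternative fits, *Erbin* in 17, *Map2k2* in 13, *Mapk3* in 12, *Adam12* in 10 and *Rhbdf1* in 7. Among these 8, only *Akt2*, *Gab1* and *Adam17* stayed called within the high-background libraries. *Erbin* and *Mapk3* were called within the low-background libraries but not within the high-background ones. *Map2k2*, *Adam12* and *Rhbdf1* were called within no background class.

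Of the 6 other EGF-family ligands 4 were tested and 0 were called by edgeR or DESeq2 (1, *Tgfa*, lower at an unadjusted p under 0.05). *Tgfa*, a ligand of EGFR, was the highest of them at 9.13 ± 1.01 CPM in controls and 7.86 ± 0.482 CPM in Neuid KD (log2 fold change -0.22, edgeR adjusted p = 0.127). *Egf* itself was at 3.44 ± 2.03 and 3.26 ± 2.26 CPM. Of the 10 genes that restrain the receptors, such as the ubiquitin ligase gene *Cbl* (log2 fold change 0.09) and the phosphatase gene *Ptprj* (0.18), 0 passed in edgeR or DESeq2 (1, *Ptprj*, higher at an unadjusted p under 0.05). *Lrig1* was thus called while its paralogs *Lrig2* and *Lrig3*, at log2 fold changes of 0.02 and 0.08, did not pass; the difference between paralogs was not tested.

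Of the 8 sheddase genes and their cofactors, which release ligands from the membrane, 3 were called higher. *Adam17*, the main protease that sheds HB-EGF, was at 11.8 to 14.4 CPM in controls and 15.4 to 19.7 CPM in Neuid KD (log2 fold change 0.49, edgeR adjusted p = 0.00012), with no overlap. *Adam12* (log2 fold change 0.24) and *Rhbdf1* (0.25), a cofactor of ADAM17, had smaller values, and their groups overlapped. *Bace1* and *Adam10*, the most abundant of this list, had log2 fold changes of 0.06 and 0.00 and did not pass. The lowest log2 fold change of the list was -0.68, in a gene that was not called.

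Downstream, the adaptor and Ras-ERK list held 17 genes. The docking protein gene *Gab1* went from 24.3 ± 1.53 to 34.4 ± 1.52 CPM (log2 fold change 0.50, edgeR adjusted p = 3.1e-06), with no overlap between groups. *Map2k2*, which encodes the kinase MEK2, was called higher (0.20) and *Mapk3*, which encodes ERK1, lower (-0.18), both by small amounts. *Shc3* had a log2 fold change of -0.03 and did not pass. Of 13 genes of the PI3K, PLC and STAT branch *Akt2* was the 1 called by edgeR, and DESeq2 called 2, both higher. At an unadjusted p under 0.05 in edgeR, 4 were higher and 1 lower. The log2 fold changes of this list ran from -1.02, in a gene that was not called, to 0.61. *Akt2* went from 23.6 ± 1.74 to 36.1 ± 3.15 CPM (log2 fold change 0.61, edgeR adjusted p = 3.8e-06), while *Pik3r1* had a log2 fold change of -0.17 and did not pass. Of 4 scaffold genes *Erbin*, whose protein binds ErbB2, was called higher (log2 fold change 0.29, edgeR adjusted p = 0.0118), and the postsynaptic scaffold genes *Dlg4* (0.05) and *Dlg3* (-0.07) were not called.

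**Figure D5:**
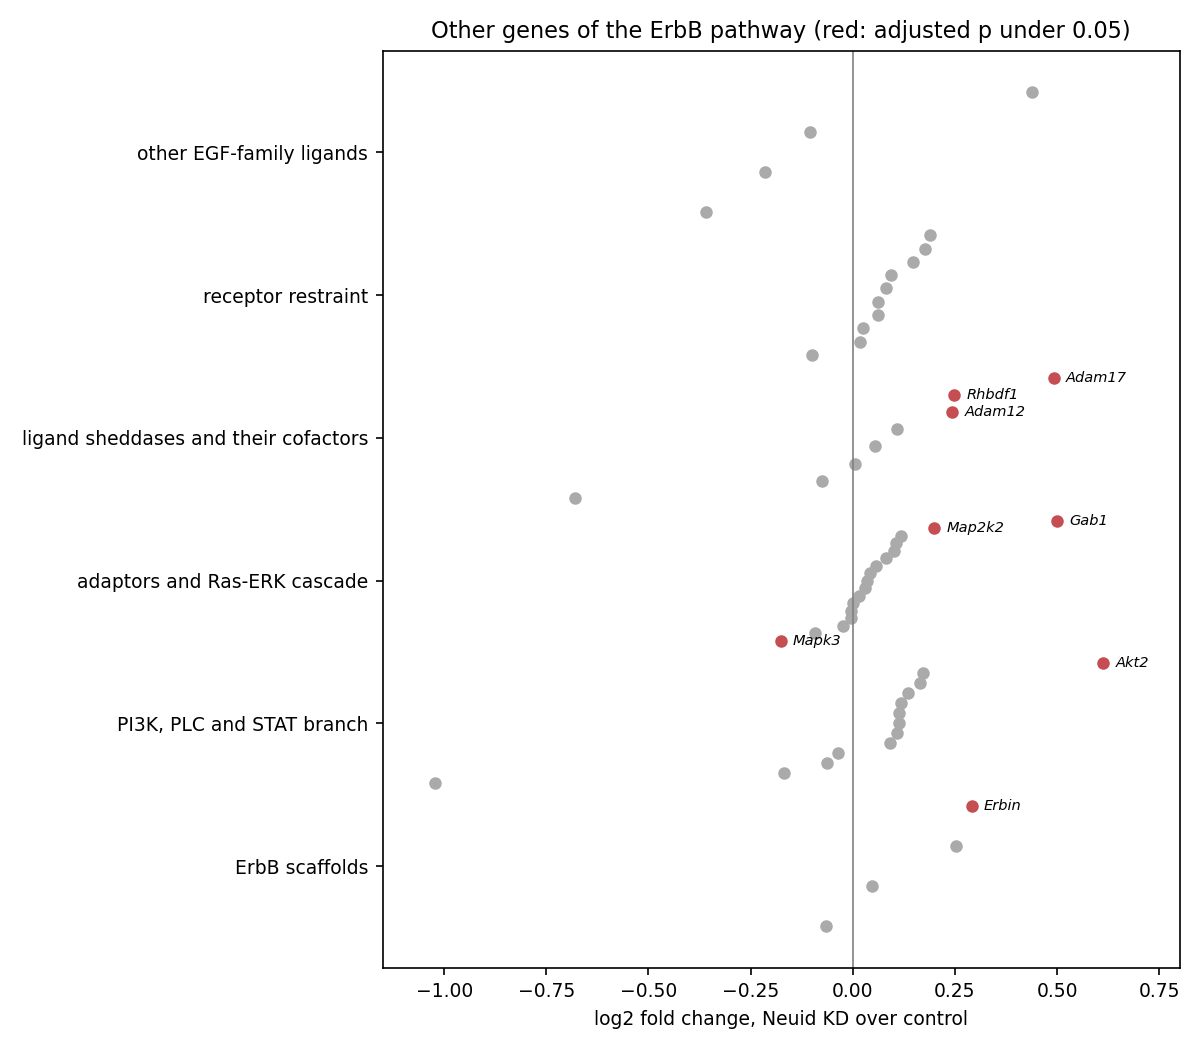
Log2 fold change (Neuid KD over control) of the 56 tested pathway genes by list, 1 point per gene, in red where the adjusted p was under 0.05. Of these points 7 lie right of 0 in red, led by *Akt2* at 0.61, and *Mapk3* at -0.18 is the 1 red point left of 0.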

How the data were processed

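The authors sequenced 12 libraries (6 control, 6 Neuid KD) of total RNA from primary mouse hippocampal cells made with a stranded SMARTer pico kit, and reads were aligned with STAR and counted per gene with featureCounts on mm10 (GRCm38). The deposited values are raw counts per Ensembl gene. The strand setting, the handling of reads with several matches and the annotation release are not given in the sources used here.

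Groups came from the treatment labels. Gene symbols, positions and exon lengths came from GENCODE M21. Genes kept by filterByExpr (minimum count 10) were scaled by TMM and tested by group with edgeR 4.0.16 (quasi-likelihood test, R 4.3.3), with Benjamini-Hochberg adjustment over all 19578 tested genes and a threshold of 0.05. CPM used TMM-scaled library sizes, and RPKM divided CPM by the exon union length. The standard error given with an edgeR log2 fold change is its absolute value divided by the square root of the test's F statistic. Chemosensory background summed 1780 receptor genes, with the classes split at 100 CPM. Libraries held 11152556 to 30914714 reads. Genes with few reads, such as *Erbb3* and *Btc*, have wide counting error. Replicate libraries were not copies of the same counts, since every one of 30 pairs within groups differed by more than sampling noise. Separate preparations from a shared culture could differ as much, so this does not show that the cultures were separate.

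The members and the pathway and marker lists were chosen with earlier results of these data known. All members were named. From each pathway list the called genes were named with up to 2 further genes of the highest mean CPM; *Lrig2* and *Lrig3* were added after their values were seen. A few genes that these rules name are not reported here. Alternatives were other scalings, DESeq2 1.42.0, other filters, 1 RUVs factor (the authors used RUVseq), the background covariate, background classes, the replicate block and leaving out each library. The edgeR step was tested on simulated data.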

Additional observations from a re-analysis of the deposited data

Results flagged for a closer look

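Among 38 groups of 6 libraries (19 genes in both groups), 3 held a library whose gap to its neighbour took up more of the group's range than Dixon's critical value allows, and chance alone marks about 1 group in 20. *Erbb4* was at 33.3 CPM in Neuid KD 1, with the other 5 Neuid KD libraries between 43.5 and 46.8 CPM. *Btc* was at 0.926 CPM in Neuid KD 1, with the others between 0.155 and 0.366 CPM. *Mapk3* was at 60.5 CPM in Neuid KD 6, with the others between 69.1 and 71.8 CPM. Neuid KD 1 was the shallowest library, with 11152556 reads, and had the most chemosensory background of its group; the part of either in these values was not tested.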

How the results depend on the processing

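*Egfr*, *Erbb4* and *Lrig1* were called higher in all 22 alternative fits, with log2 fold changes of 1.36 to 1.45, 0.74 to 0.82 and 0.64 to 0.73. *Hbegf* was called in 20 of 22, the exceptions being the 2 background classes. No member was called lower in any alternative. Between 3 (each background class) and 6 members (RUVs factor or background covariate, which add *Erbb2* and *Nrg3*) were called higher, and 4 to 5 when single libraries were left out, with 5 without Neuid KD 1. Calls over all genes moved too. Called higher were 651 of 23644 tested genes in the high-background and 1110 of 17665 in the low-background libraries. Of 19578 genes, 1757 were called higher with the RUVs factor and 1775 with the background covariate. *Nrg1* reversed to 0.0257 in the high-background libraries. *Nrg2* reversed to 0.13 there, and leaving out single libraries moved it between -0.16 and 0.0162, with values above 0 without Neuid KD 2 or Neuid KD 3, all far from the threshold; the cause was not tested.

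Of the pathway genes, 7 were called higher over all libraries, against 3 with no filter on low counts, 3 in the high-background libraries, 11 with the RUVs factor, 11 with the background covariate, 1 with the log2 limit of 0.5 and 3 to 8 when single libraries were left out. Called lower was 1, against 7 with upper-quartile scaling, 0 with no filter, 2 with a mean of at least 1 CPM, 2 with the RUVs factor, 2 with the background covariate, 0 and 4 in the high- and low-background libraries, 0 with the log2 limit and 0 to 1 when single libraries were left out. The background classes and the fits without a library hold fewer samples, and the fit without a filter tested more genes. Why the counts moved was not tested. Over all genes, 1235 were called higher and 473 lower, against 1049 and 1259 with upper-quartile scaling, 711 and 229 with no filter and 1775 and 987 with the background covariate.

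Replicate numbers of the labels were not used as pairs in the main fit. Between libraries of the same number the correlations of deviations ran from -0.64 to 0.77, and 2 of 6 pairs were above 0.1. Pairs 1, 3 and 6 (0.77, 0.75 and 0.0037) each lay within the same background class, and pairs 2, 4 and 5 did not. Since background differs between libraries, these correlations cannot show whether a number marks a shared culture. With the replicate block 4 members were called higher and 0 lower, 10 pathway genes higher and 1 lower, and 1299 genes higher and 542 lower over all genes; 3 of 12 libraries correlated best with their own number. *Btc* and *Erbb3* had the fewest reads of the set, and these did not follow depth. Control 3, the deepest library, held 6 reads of *Erbb3* and 2 of *Btc*, while control 1 held 62 and 19.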
